A study of Mus musculus with 20 samples.

Results

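Chemokines are small secreted proteins that direct leukocytes along a gradient, and they act through G protein-coupled receptors on the leukocyte surface. Each ligand class is named for the spacing of its first cysteines (CCL, CXCL, CX3CL and XCL), and the receptor classes carry the matching names. In the diseased liver, *Ccl2* and its receptor *Ccr2* are known for bringing in blood monocytes, the *Cxcl1*, *Cxcl2* and *Cxcl5* group acts on neutrophils through *Cxcr2*, and the interferon-induced ligands *Cxcl9*, *Cxcl10* and *Cxcl11* act on T and NK cells through *Cxcr3*. *Cideb*, the gene deleted here, encodes a protein that enlarges lipid droplets in hepatocytes.

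The chemokine ligands and receptors were taken as all gene symbols in the count table that begin with Ccl, Cxcl, Cx3cl or Xcl (ligands) or with Ccr, Cxcr, Cx3cr or Xcr (receptors) and a number. This gave 62 of 50559 genes, and 61 of them, 43 ligands and 18 receptors, are described. Of these, 29 ligands and 15 receptors reached at least 10 counts in some liver. The 14 ligands below that in every liver, called not expressed, were *Ccl1*, *Ccl11*, *Ccl12*, *Ccl16-ps*, *Ccl19-ps1*, *Ccl19-ps2*, *Ccl19-ps3*, *Ccl20*, *Ccl21b*, *Ccl21d*, *Ccl26*, *Ccl27b*, *Cxcl3* and *Cxcl15*, and the 3 receptors were *Ccr1l1*, *Ccr8* and *Cxcr1*.

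RNA-seq was performed on 20 whole livers of mice with floxed *Cideb* alleles (cideb fl/fl), 5 in each of 4 groups. WT livers had received AAV-TBG-GFP and KO livers AAV-TBG-Cre, in which the hepatocyte promoter TBG drives the recombinase, so that the other cell types of a KO liver still carry *Cideb*. The mice were fed a western diet (WD) or a high-fat diet that lacks choline and has amino acids in place of protein (CDA-HFD) for 3 months by the labels, while the study's methods give WD a longer feeding time than CDA-HFD. The labels give neither age nor sex, and the methods place the vector in young mice before the diet began. Diet, and any difference in its length, cannot be told apart from one another.

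Each liver had 11697049 to 16827147 reads counted on genes. *Cideb* had 35 to 100 counts in WT livers and 0 to 6 in KO livers. The fifth KO liver on CDA-HFD (KO liver 5 below) had 1 *Cideb* count, yet it lay among the WT livers for many chemokine genes, so the counts on CDA-HFD are also given without it. This liver was singled out after its values were seen, so p-values without it are biased by that choice and only describe its weight. Leaving it out raised the genes that passed for KO against WT on CDA-HFD from 2664 to 7201. Its levels of the markers of most cell types were also unlike those of its group. Summed over 12 macrophage and monocyte markers, its level was 2591 CPM (counts scaled to library size and by TMM factors across the livers). The median of its group was 683.5 CPM, and WT livers on CDA-HFD held 1996 to 4200 CPM. KO liver 5 was also the highest of its group for stellate cell (3369 CPM, group median 1286), cholangiocyte (649.3, median 132.4) and T and NK cell markers (52.6, median 17.7). It was the lowest for hepatocyte (30770 CPM, median 69840) and Kupffer cell markers (92.5, median 325.9), and at the median for B cell markers. Its neutrophil and dendritic cell sums were also the highest and its endothelial sum the lowest. In whole liver, fewer cells of a type and less RNA per cell cannot be told apart, and this holds for every level below.

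Many of the chemokine genes described below lie in clusters of the mouse genome (GENCODE M21 on GRCm38, which is mm10, the build named for these data). The CXC ligands *Cxcl5* (chr5:90759360-90761624), *Cxcl1* (chr5:90891241-90893115) and *Cxcl2* (chr5:90903871-90905938) are neighbors on the plus strand, and *Cxcl9* (chr5:92321347-92328079), *Cxcl10* (chr5:92346638-92348889) and *Cxcl11* (chr5:92359544-92365485) follow on the minus strand of the same chromosome. The CC ligands *Ccl2* (chr11:82035571-82037453) and *Ccl7* (chr11:82045712-82047525) form one group on chromosome 11, and *Ccl5*, *Ccl9*, *Ccl6*, *Ccl3* and *Ccl4* another, from chr11:83525778-83530518 to chr11:83662584-83664683. The receptors *Ccr1* (chr9:123962124-123968692), *Ccr3* and *Ccr2* (chr9:124101950-124113557) lie together on chromosome 9.

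Promoter sequences of RefSeq (GRCm38.p6) were at hand for 43 of the 61 genes, and 5 are shown. *Cxcl2* and *Ccl3* fell in KO livers on CDA-HFD as described below. *Cxcl1*, the neighbor of *Cxcl2*, and *Cxcl10* and *Cxcl9*, farther along the same chromosome, did not pass. Each is written 5′ to 3′ on the gene's own strand and holds the bases before the RefSeq start that lie outside the exons of GENCODE M21. That left out 28 bases for *Cxcl2* and 4 for *Cxcl1*, and for *Ccl3* the sequence ends 23 bases before the first exon. Capitals mark matches, on either strand, to a kappa B core (GGANTTTCC) or to an interferon response core (GAAANNGAA). The kappa B core is a narrow form of the letters that NF-kappa B is known to bind. Other forms were not searched for, so lowercase stretches may hold them.
Cxcl2 (chr5:90903649-90903870, plus strand): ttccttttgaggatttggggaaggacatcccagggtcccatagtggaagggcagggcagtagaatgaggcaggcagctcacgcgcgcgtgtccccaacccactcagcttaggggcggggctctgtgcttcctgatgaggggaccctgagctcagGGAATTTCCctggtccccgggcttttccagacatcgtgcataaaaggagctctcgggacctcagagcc
Cxcl1 (chr5:90890995-90891240, plus strand): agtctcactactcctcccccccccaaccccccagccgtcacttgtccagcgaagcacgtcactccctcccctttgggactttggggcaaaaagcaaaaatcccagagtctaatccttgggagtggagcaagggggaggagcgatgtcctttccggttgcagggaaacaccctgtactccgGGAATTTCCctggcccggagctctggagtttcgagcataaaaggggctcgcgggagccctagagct
Ccl3 (chr11:83649379-83649628, minus strand): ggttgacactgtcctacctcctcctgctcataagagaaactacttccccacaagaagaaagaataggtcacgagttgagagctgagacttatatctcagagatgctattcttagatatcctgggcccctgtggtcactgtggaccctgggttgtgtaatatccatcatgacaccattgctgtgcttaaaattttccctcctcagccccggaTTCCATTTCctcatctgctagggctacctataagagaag
Cxcl10 (chr5:92348890-92349139, minus strand): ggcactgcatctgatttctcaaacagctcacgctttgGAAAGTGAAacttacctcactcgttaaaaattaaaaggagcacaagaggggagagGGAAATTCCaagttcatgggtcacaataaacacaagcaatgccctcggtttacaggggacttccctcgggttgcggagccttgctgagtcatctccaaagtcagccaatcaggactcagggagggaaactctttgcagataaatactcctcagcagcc
Cxcl9 (chr5:92328080-92328329, minus strand): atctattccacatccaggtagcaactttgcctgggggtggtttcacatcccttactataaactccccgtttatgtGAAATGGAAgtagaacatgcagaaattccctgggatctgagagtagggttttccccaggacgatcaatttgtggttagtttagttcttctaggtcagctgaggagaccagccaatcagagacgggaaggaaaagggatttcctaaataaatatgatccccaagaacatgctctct
The kappa B core was present in the 250 bases before the start of *Cxcl1*, *Cxcl2*, *Cxcl3*, *Cxcl10* and *Ccr3*, which is 5 of 43 members, while 1.05% of 27025 promoters of the same length held it. The interferon response core was present in 8 of 43 members, *Ccl1*, *Ccl3*, *Ccl19*, *Cxcl9*, *Cxcl10*, *Cxcl14*, *Ccr2* and *Cxcr1*, against 7.16% of those promoters. *Cxcl1* and *Cxcl2* carried the same kappa B letters, which begin 66 and 68 bases before the end of the sequences shown. On CDA-HFD, KO against WT, the kappa B core was in 1 of 8 members that fell and 2 of 16 that did not pass. For the interferon response core these were 3 of 8 and 3 of 16. *Ccl27a*, which rose, held neither. Members without a promoter sequence are in none of these counts. A match describes the letters and is not a binding site.

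The comparison of KO with WT livers on CDA-HFD asks how the chemokine genes differ on this diet when hepatocytes lack *Cideb*. Of 23 ligands tested, 8 fell in KO livers (*Cxcl5*, *Ccl2*, *Ccl3*, *Cxcl2*, *Ccl6*, *Cxcl14*, *Ccl4* and *Ccl9*) and 1 rose (*Ccl27a*), by edgeR's quasi-likelihood test at a Benjamini-Hochberg adjusted p under 0.05. Of 11 receptors tested, 3 fell (*Ccr1*, *Cxcr2* and *Ccr2*) and 0 rose. Among all 17204 genes of that fit, 7.29% fell and 8.19% rose. The median log2 fold change was -0.69 over the ligands tested and -0.83 over the receptors tested, and 0.005 over all genes. Over ligands and receptors together it was -0.74. It was -0.22 where at least 10 counts were required in every liver compared, beside 0.007 over all genes.

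Without KO liver 5, 12 of 24 ligands fell and 4 rose, and 6 of 12 receptors fell and 0 rose, while 21.8% of all 17411 genes fell and 19.6% rose. A gene was tested only if it had enough counts in one group, so the genes tested are not all members. Among the expressed members, the ligands *Ccl7*, *Ccl8*, *Ccl17*, *Ccl28*, *Cxcl17* and *Xcl1* and the receptors *Ccr3*, *Ccr4*, *Ccr6* and *Cxcr5* were not tested on CDA-HFD.

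The falls of *Ccl2*, *Ccl9*, *Cxcl5* and *Ccr1* passed with each of the 10 livers left out in turn. The other calls were lost when some single livers were left out: *Ccl3* in 2 of 10 such fits, *Ccl27a* in 3, *Cxcr2* in 4, *Ccl6* in 6, *Cxcl14* in 7, *Ccl4* in 8, and *Cxcl2* and *Ccr2* in 9. Without KO liver 5 they all passed, with log2 fold changes of -3.82 for *Cxcl5*, -2.08 for *Ccl2*, -2.01 for *Cxcl2*, -1.73 for *Cxcl14*, -1.63 for *Ccl3*, -1.59 for *Cxcr2*, -1.42 for *Ccl4*, -0.89 for *Ccl9* and 0.81 for *Ccl27a*. Those of *Ccl6*, *Ccr1* and *Ccr2* are given below.

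**Figure D1:**
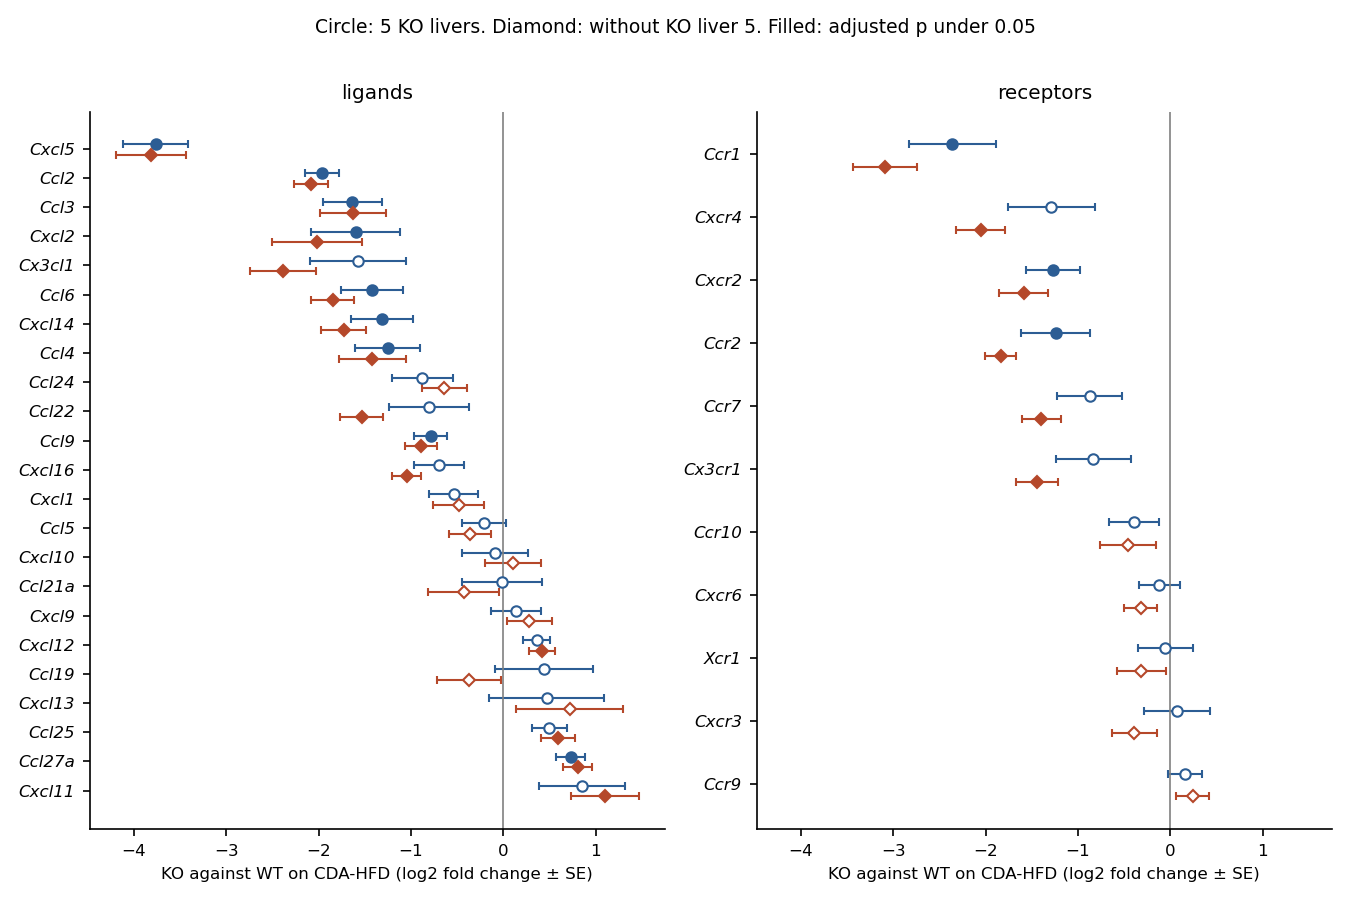
Log2 fold change of KO against WT livers on CDA-HFD (x axis, ± SE) for the 23 ligands (left) and 11 receptors (right) tested, with all 5 KO livers (circles) and without KO liver 5 (diamonds). Filled symbols passed at an adjusted p under 0.05. *Cxcl5* lies lowest, at -3.77, and *Ccr1* is the lowest receptor, at -2.36.

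Of the neutrophil-directed ligands, *Cxcl5* had the largest fold change among the members. WT livers on CDA-HFD held 2.98, 3.10, 3.69, 2.28 and 2.80 CPM of *Cxcl5*. KO livers held 0.0696, 0.0633, 0.398, 0.294 and 0.239 CPM, which are only 1, 1, 6, 4 and 4 counts. Every KO liver, KO liver 5 included, lay below every WT liver, and the log2 fold change was -3.77 ± 0.36 (SE), or 13.6 times lower (adjusted p = 0.00157). On WD, *Cxcl5* was at 0.782, 0.0858, 0.151, 0.0991 and 0.364 CPM in WT livers and 0.643, 0.233, 0.465, 0.455 and 0.0782 CPM in KO livers. The KO livers on CDA-HFD thus lay in the range of both WD groups or below it, and the WT livers on CDA-HFD stood above all others.

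*Cxcl2* measured 1.71, 0.844, 1.16, 0.938 and 1.90 CPM in WT livers on CDA-HFD. KO livers measured 0.765, 0.190, 0.266, 0.0734 and 0.838 CPM, and KO livers 1 and 5, at the top of their group, came close to the lowest WT liver without reaching it. For *Cxcl2* the estimate was -1.60 ± 0.48 on the log2 scale (adjusted p = 0.0473). Scaling by library size alone gave an adjusted p of 0.0600, and no filter on low counts gave 0.0548. *Cxcl1*, the neighbor with the same kappa B letters, did not pass: it measured 8.62, 8.94, 4.35, 6.97 and 11.6 CPM in WT livers and 5.63, 6.45, 7.57, 3.52 and 4.79 CPM in KO livers. The groups overlapped (-0.54 ± 0.27, adjusted p = 0.172). *Cxcl3* was not expressed.

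*Cxcr2*, the receptor through which these ligands act on neutrophils, fell as *Cxcl5* and *Cxcl2* did. It measured 1.90, 1.48, 1.32, 1.21 and 1.09 CPM in WT livers on CDA-HFD and 0.348, 0.443, 0.598, 0.440 and 1.02 CPM in KO livers. The groups did not overlap, although KO liver 5 was just below the lowest WT liver, and the log2 fold change was -1.27 ± 0.30 (adjusted p = 0.0214). Of 6 neutrophil markers, 5 were tested and all of those fell, with or without KO liver 5 (*Csf3r*, *Mmp8*, *Retnlg*, *S100a8* and *S100a9*). Their summed level was 30.7 to 66.8 CPM in WT livers and 9.23 to 21.3 CPM in KO livers, and *Ly6g* was below 10 counts in every liver. The part of neutrophil number in the fall of *Cxcr2* was not tested.

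*Ccl2*, the main ligand of *Ccr2*, fell on CDA-HFD. It measured 4.06, 5.70, 5.07, 4.02 and 5.27 CPM in WT livers on CDA-HFD. In KO livers it measured 1.04, 1.20, 1.26, 1.03 and 1.62 CPM. All 5 KO livers lay together and well below the WT livers, with a log2 fold change of -1.97 ± 0.18, or 3.90 times lower (adjusted p = 0.00157). The exact two-sided permutation p was 0.00794, the smallest that 5 livers against 5 allow.

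*Ccl7*, the neighbor of *Ccl2* and a second ligand of *Ccr2*, had too few counts to be tested with all 5 KO livers. It measured 1.46, 1.20, 1.27, 0.603 and 1.14 CPM in WT livers and 0.417, 0.316, 0.332, 0.294 and 0.419 CPM in KO livers, again with no overlap. The exact permutation p for this difference was 0.00794. Without KO liver 5 it was tested and fell, with a log2 fold change of -1.72 ± 0.31 (adjusted p = 0.00159).

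*Ccr2*, the receptor of both, behaved less evenly than its ligand. It measured 52.7, 31.5, 44.0, 32.2 and 44.6 CPM in WT livers on CDA-HFD. It measured 12.7, 11.5, 9.56, 12.2 and 41.1 CPM in KO livers, so that 4 KO livers lay below every WT liver and KO liver 5 lay within the WT range. The estimate was -1.24 ± 0.37 (adjusted p = 0.0470; 0.0762 under scaling by library size alone) with KO liver 5 and -1.84 ± 0.16 (adjusted p = 6.7e-05) without it. In KO liver 5 the receptor was thus at the WT level while *Ccl2* was not.

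*Ccl3*, a ligand of *Ccr1*, and *Ccl4*, both made by activated macrophages and lymphocytes, both fell. *Ccl3* measured 0.824, 0.633, 1.27, 1.00 and 0.996 CPM in WT livers and 0.209, 0.506, 0.332, 0.147 and 0.299 CPM in KO livers on CDA-HFD. The log2 fold change was -1.63 ± 0.32 (adjusted p = 0.0139), and the KO livers had at most 8 counts each. *Ccl4* measured 1.71, 1.55, 2.54, 1.34 and 1.85 CPM in WT livers and 0.209, 1.14, 0.797, 0.514 and 1.08 CPM in KO livers, and the log2 fold change was -1.25 ± 0.35 (adjusted p = 0.0387). Neither gene's groups overlapped. *Ccl5*, another ligand of *Ccr1* and known for drawing T cells and monocytes, did not pass, at 4.94, 3.80, 4.74, 6.77 and 3.37 CPM in WT livers and 4.38, 4.30, 2.79, 3.23 and 5.68 CPM in KO livers (-0.21 ± 0.24, adjusted p = 0.547).

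*Ccl6* and *Ccl9*, ligands of *Ccr1* that mouse myeloid cells make in quantity, were, per length, the most abundant chemokine ligands in WT livers on CDA-HFD after *Cxcl12*. *Ccl6* measured 86.3, 41.7, 47.5, 36.7 and 53.1 CPM in WT livers. In KO livers it measured 16.8, 12.8, 13.1, 16.3 and 40.0 CPM. KO liver 5 reached the lower WT livers and the other 4 did not, and the log2 fold change was -1.42 ± 0.34 (adjusted p = 0.0224), or -1.85 without KO liver 5.

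*Ccl9* measured 82.0, 67.9, 66.5, 65.1 and 72.2 CPM in WT livers on CDA-HFD. KO livers measured 49.2, 25.9, 45.2, 32.6 and 52.7 CPM, all below the WT livers. Its log2 fold change of -0.79 ± 0.18 (adjusted p = 0.0193) was the smallest among the 8 ligands that fell.

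*Ccr1*, a receptor of monocytes, macrophages and neutrophils, had the largest fold change among the receptors. It measured 8.75, 4.71, 5.40, 3.15 and 7.73 CPM in WT livers on CDA-HFD. It measured 0.835, 0.886, 0.598, 0.440 and 2.93 CPM in KO livers, with KO liver 5 far above the other 4 and just below the lowest WT liver. The log2 fold change was -2.36 ± 0.47, or 5.14 times lower (adjusted p = 0.0147), and -3.09 ± 0.35 without KO liver 5.

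The falls of *Ccr1*, *Ccr2*, *Ccl6* and *Ccl9* ran alongside macrophage and monocyte markers, of which 10 of 12 fell in the same comparison (*Adgre1*, *Cd14*, *Cd68*, *Csf1r*, *Fcgr1*, *Itgam*, *Ly6c2*, *Mpeg1*, *Ptprc* and *Trem2*). Their summed level was 1996 to 4200 CPM in WT livers and 598.5 to 2591 CPM in KO livers, the highest of the latter being KO liver 5, without which all 12 fell. Of 6 markers of the resident Kupffer cells, 0 passed, and their summed level was 172.5 to 373.1 CPM in WT livers and 92.5 to 425.6 CPM in KO livers. When KO liver 5 was left out, 2 of these 6 rose (*Clec4f* and *Marco*). Of 6 hepatocyte markers 1 rose (*Hnf4a*), and 4 rose without that liver. The part of cell number in the falls of these chemokine genes was not tested.

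**Figure D2:**
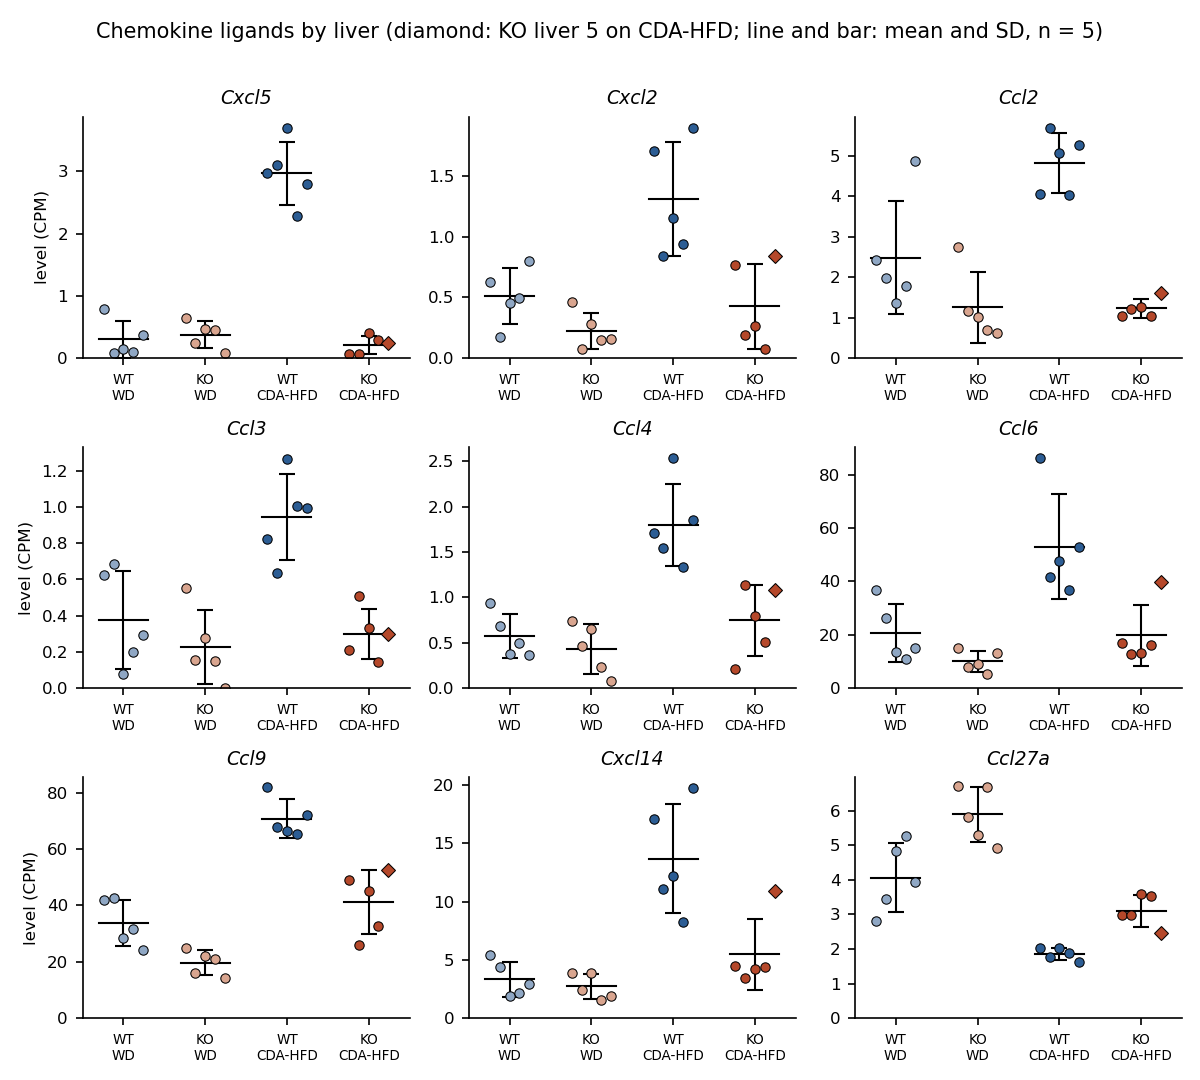
Level (CPM, y axis from 0) in each of the 20 livers for the 9 ligands that passed in KO against WT livers on CDA-HFD. Points are livers, lines and bars are the mean and SD of 5 livers, and the diamond is KO liver 5 on CDA-HFD. For *Cxcl5* and *Ccl2* the diamond lies with the other KO livers, and for *Ccl6* and *Cxcl14* it lies at 40.0 and 10.9 CPM, within the WT range.

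*Cxcl14*, a ligand of epithelia and stroma, fell as well. It measured 17.1, 11.1, 12.2, 8.24 and 19.7 CPM in WT livers and 4.52, 3.42, 4.25, 4.40 and 10.9 CPM in KO livers on CDA-HFD. Of the KO livers, only KO liver 5 reached the WT range, and the log2 fold change was -1.32 ± 0.33 (adjusted p = 0.0278). Of 8 stellate cell markers 1 fell (*Acta2*) and of 6 cholangiocyte markers 0 did, against 6 and 6 without KO liver 5, and their part in this fall was not tested.

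*Ccl27a*, a ligand of *Ccr10* known from epithelia, was the one member that rose. It measured 2.03, 1.76, 2.04, 1.88 and 1.61 CPM in WT livers and 2.99, 2.97, 3.59, 3.52 and 2.45 CPM in KO livers on CDA-HFD. Every KO liver lay above every WT liver, with a log2 fold change of 0.73 ± 0.16 (adjusted p = 0.0185), though under scaling by library size alone the adjusted p was 0.0601. The gene has near copies on chromosome 4, to which its reads may be split. *Ccr10* was at 1.01, 0.633, 0.661, 0.402 and 0.664 CPM in WT livers and 0.487, 0.633, 0.398, 0.440 and 0.599 CPM in KO livers and did not pass (-0.40 ± 0.27, adjusted p = 0.326).

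Groups that did not overlap, with KO below WT, were seen for 8 members (*Ccl2*, *Ccl3*, *Ccl4*, *Ccl9*, *Cxcl2*, *Cxcl5*, *Ccr1* and *Cxcr2*) of the 34 tested, and for 4.53% of all genes tested. With KO liver 5 left out this held for 18 of 36 members tested and 17.6% of all genes.

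The interferon-induced ligands did not pass and their groups overlapped. *Cxcl9* measured 7.61, 19.4, 15.6, 17.2 and 14.1 CPM in WT livers and 12.6, 23.0, 16.4, 20.1 and 9.63 CPM in KO livers on CDA-HFD (0.14 ± 0.27, adjusted p = 0.742). *Cxcl10* measured 5.07, 12.2, 8.54, 9.18 and 12.9 CPM in WT livers and 5.70, 15.3, 8.30, 12.0 and 3.95 CPM in KO livers (-0.09 ± 0.36, adjusted p = 0.877). *Cxcl11*, annotated as a polymorphic pseudogene in GENCODE M21, measured 1.20, 3.38, 0.771, 1.34 and 1.80 CPM in WT livers and 3.62, 3.23, 5.18, 2.42 and 0.898 CPM in KO livers (0.85 ± 0.46, adjusted p = 0.210). For *Cxcl11* the estimate lay above 0 and was 1.10 ± 0.37 (adjusted p = 0.0333) without KO liver 5, but 41.7% of its exon bases overlap a gene on the other strand. Their receptor *Cxcr3* did not pass either (0.08 ± 0.36, adjusted p = 0.899), nor did any of the 11 T and NK cell markers tested, of which *Il7r* fell without KO liver 5. Scaling by library size alone turned the sign of the estimates of *Cxcl9* and *Cxcr3*.

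**Figure D3:**
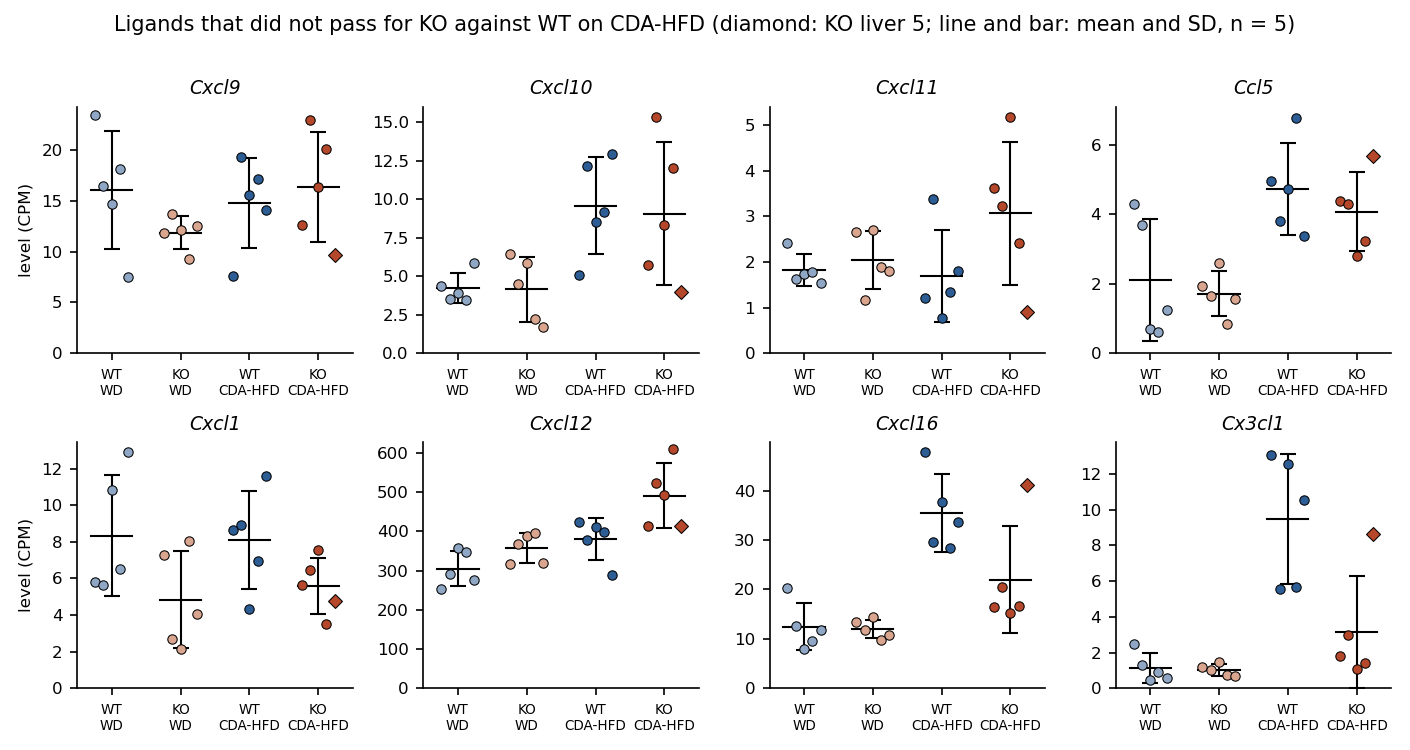
Level (CPM, y axis from 0) in each of the 20 livers for 8 ligands that did not pass in KO against WT livers on CDA-HFD. Points, lines and bars are livers, means and SD of 5 livers, and the diamond is KO liver 5. The groups on CDA-HFD overlap in every panel. For *Cxcl16* and *Cx3cl1* the diamond, at 41.1 and 8.62 CPM, lies within the WT range and the 4 other KO livers lie below it.

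*Cxcl12*, which retains leukocytes and progenitors through *Cxcr4*, was the most abundant member per length in every group, at 46.5 ± 6.51 CPM per kb of exon (mean ± SD, n = 5) in WT livers on CDA-HFD. *Ccl6* followed at 29.6 ± 10.9, *Ccl9* at 23.2 ± 2.24 and *Cxcl16* at 11.7 ± 2.59 CPM per kb. *Ccl6* and *Ccl9* did not differ beyond their spread in that order. On CDA-HFD, *Cxcl12* measured 423, 378, 410, 399 and 289 CPM in WT livers and 413, 524, 493, 609 and 414 CPM in KO livers, overlapped and did not pass (0.36 ± 0.14, adjusted p = 0.102).

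Some receptors with high levels did not pass with KO liver 5 and did without it, in a fit chosen after that liver's values were seen. *Cxcr4* measured 25.4, 9.57, 21.9, 15.3 and 15.3 CPM in WT livers and 4.73, 4.05, 3.12, 4.99 and 18.9 CPM in KO livers on CDA-HFD. The log2 fold change of *Cxcr4* was -1.29 ± 0.47 (adjusted p = 0.0804) with KO liver 5 and -2.06 ± 0.27 (adjusted p = 0.000325) without it. *Cx3cr1*, carried by patrolling monocytes and macrophages, measured 41.3, 23.2, 35.0, 21.7 and 32.3 CPM in WT livers and 16.1, 8.86, 11.7, 8.66 and 41.1 CPM in KO livers. The log2 fold change of *Cx3cr1* was -0.83 ± 0.41 (adjusted p = 0.167) with KO liver 5 and -1.44 ± 0.23 (adjusted p = 0.000906) without it. *Ccr7*, which brings dendritic and T cells to lymphoid tissue, moved from -0.87 ± 0.35 (adjusted p = 0.106) to -1.40 ± 0.21 (adjusted p = 0.000700).

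*Cx3cl1*, the membrane-bound ligand of *Cx3cr1*, measured 13.1, 5.56, 12.6, 5.70 and 10.5 CPM in WT livers and 1.81, 2.97, 1.06, 1.40 and 8.62 CPM in KO livers on CDA-HFD. It did not pass with KO liver 5 (-1.57 ± 0.52, adjusted p = 0.0622) and passed without it (-2.38 ± 0.36, adjusted p = 0.000666). *Cxcl16*, the ligand of *Cxcr6*, did the same, from -0.69 ± 0.27 (adjusted p = 0.0948) to -1.04 ± 0.16 (adjusted p = 0.000626). *Cxcr6* itself measured 4.12, 5.42, 5.79, 4.96 and 4.03 CPM in WT livers and 3.90, 4.37, 2.92, 4.40 and 6.88 CPM in KO livers, overlapped, and did not pass with that liver (-0.12 ± 0.22, adjusted p = 0.727) or without it (-0.32 ± 0.18, adjusted p = 0.167). *Ccl22*, *Ccl25* and *Cxcl12* also passed only without that liver, *Ccl22* lower (-1.53) and *Ccl25* (0.59) and *Cxcl12* (0.42) higher. Summed over the 18 receptors, KO liver 5 held 129.3 CPM, the 4 other KO livers 39.6 to 52.8 CPM and the WT livers 91.1 to 160.4 CPM.

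**Figure D4:**
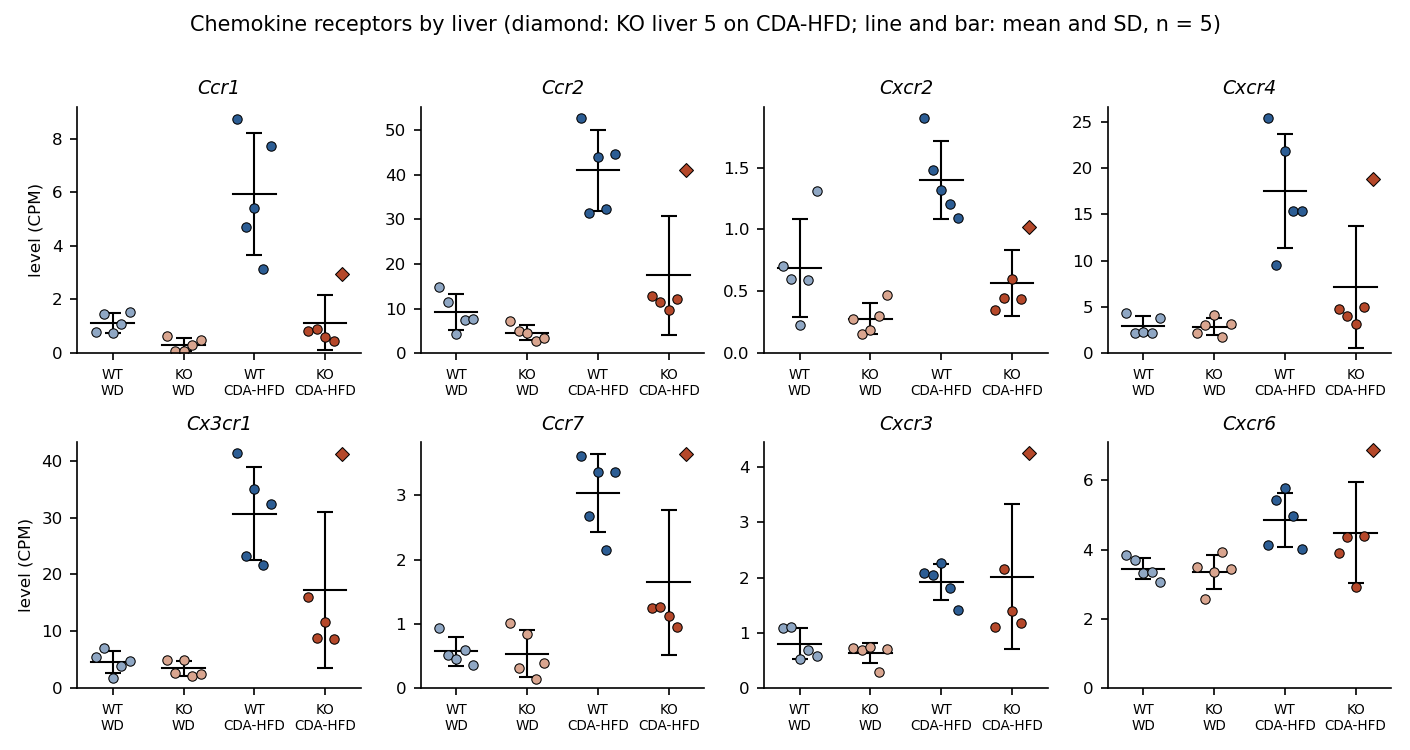
Level (CPM, y axis from 0) in each of the 20 livers for 8 chemokine receptors. Points, lines and bars are livers, means and SD of 5 livers, and the diamond is KO liver 5 on CDA-HFD. That liver lies above the 4 other KO livers on CDA-HFD in every panel, at 41.1 CPM for *Ccr2* and 18.9 CPM for *Cxcr4*.

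On CDA-HFD the genes around the chemokine system moved in both directions. Of 17 tested inducers of chemokine genes, 7 fell: *Tnf* (-1.18, adjusted p = 0.0233), *Il1a*, *Il1b* (-0.74), *Tlr2*, *Tlr4* (-1.09), *Nfkbia* and *Tnfaip3*, which are cytokines, receptors and targets of the NF-kappa B pathway. The interferon factors *Irf7* (0.65, adjusted p = 0.0482) and *Stat2* (0.67, adjusted p = 0.0171) rose. Of 38 genes of signalling below the receptors, 14 fell, among them *Rac2* (-0.93), *Dock2* (-0.97) and *Pik3cg* (-1.09), which serve leukocyte migration, and *Rasgrp2* rose. Of 9 tested chemokines and decoy receptors outside the naming rule, the platelet factor *Pf4* fell (-1.45, adjusted p = 0.0276) and 0 rose. Leaving out KO liver 5, 10 of 17 inducers fell and 3 rose, 27 of 38 signalling genes fell and 2 rose, and 5 of 10 genes outside the naming rule fell and 1 rose.

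On WD, the comparison of KO with WT livers asks the same question. By edgeR, 0 of 17 ligands and 0 of 6 receptors passed, and 0.0757% of all 15848 genes did. At an unadjusted p under 0.05, 5 ligands (*Ccl2*, *Ccl6*, *Ccl9*, *Ccl24* and *Ccl27a*) and 1 receptor (*Ccr2*) were counted, beside 1702 of all genes. DESeq2 called 1 ligand, *Ccl9*, lower, and 0 receptors, beside 164 of all genes. The smallest adjusted p among the members was that of *Ccl9*, which measured 42.0, 42.8, 28.6, 31.6 and 24.2 CPM in WT livers and 24.8, 15.9, 22.2, 21.1 and 14.2 CPM in KO livers, with 1 KO liver just above the lowest WT liver and a log2 fold change of -0.78 ± 0.19 (adjusted p = 0.202). *Ccl27a* measured 2.82, 3.43, 4.84, 5.25 and 3.94 CPM in WT livers and 6.71, 5.83, 5.30, 6.68 and 4.93 CPM in KO livers (0.54 ± 0.18, adjusted p = 0.325). *Ccl2* measured 2.42, 1.98, 1.36, 1.78 and 4.88 CPM in WT livers and 2.76, 1.17, 1.02, 0.683 and 0.626 CPM in KO livers, and WT liver 5 and KO liver 1 stood above the rest of their groups.

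The other expressed members had too few counts on WD for that fit. Of these, only *Ccr1* had groups that did not overlap on WD, with 0.782, 1.46, 0.756, 1.09 and 1.53 CPM in WT livers and 0.643, 0.0777, 0.0931, 0.303 and 0.469 CPM in KO livers. Its exact permutation p was 0.00794, not adjusted for the number of members. Among the 15848 genes tested on WD, 172 lay apart with KO lower and 180 with KO higher, and 0 of the 23 members tested did. The groups overlapped for *Cxcr2* (exact permutation p = 0.0318), *Cxcl2* (0.0476) and *Ccr3* (0.0476), each lower on average in KO livers, and the other untested members had an exact permutation p above 0.05.

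Whether the KO effect differed between the diets was then tested in all 20 livers. It passed for *Cxcl5* among 25 ligands, with a log2 difference of -4.01 ± 0.75 (adjusted p = 0.0176), and for 0 of 12 receptors. Among all 17804 genes, 0.225% passed in that direction and 0.331% in the other. At an unadjusted p under 0.05, 1 ligand and 0 receptors were counted, beside 2736 of all 17804 genes. Without KO liver 5, *Cxcl5* (-4.06, adjusted p = 0.00507), *Cx3cl1* (-2.22, adjusted p = 0.0244), *Cxcl16* (-0.99, adjusted p = 0.0330), *Cxcl14* (-1.41, adjusted p = 0.0439) and the receptor *Cxcr4* (-1.99, adjusted p = 0.00618) passed, beside 5.71% of all genes in that direction and 6.17% in the other. For *Ccl2*, whose fall passed on CDA-HFD, the difference was -0.94 ± 0.50 (adjusted p = 0.375), so that a difference between the diets was not shown. *Ccl9* had nearly the same estimate on both diets, -0.78 on WD and -0.79 on CDA-HFD, and their difference was 0.00 ± 0.25. For *Cxcl5*, DESeq2 gave a similar value (-4.09) with no adjusted p, and the test was lost without KO liver 1 on WD.

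In WT livers, most chemokine genes tested were higher on CDA-HFD than on WD. Of 22 ligands tested, 12 rose (*Cxcl5*, *Cx3cl1*, *Cxcl14*, *Ccl22*, *Ccl4*, *Cxcl16*, *Ccl6*, *Cxcl2*, *Cxcl10*, *Ccl21a*, *Ccl9* and *Ccl2*) and 2 fell (*Ccl25* and *Ccl27a*), while 25.9% of all 16726 genes rose and 25.2% fell. Of 11 receptors tested, 9 rose (*Cx3cr1*, *Cxcr4*, *Ccr1*, *Ccr7*, *Ccr2*, *Xcr1*, *Cxcr3*, *Cxcr2* and *Cxcr6*) and 0 fell. The median log2 fold change was 1.06 over the ligands and 2.11 over the receptors tested, and -0.003 over all genes. The WT livers on CDA-HFD are the same as those compared with KO livers above, so the 2 comparisons share them.

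The largest rises in WT livers were those of *Cxcl5* (3.23 ± 0.40, adjusted p = 7.34e-05), *Cx3cl1* (3.04 ± 0.42, adjusted p = 0.000144) and the receptor *Cx3cr1* (2.74 ± 0.30, adjusted p = 3.71e-05). *Cx3cl1* went from 2.50, 1.29, 0.454, 0.892 and 0.583 CPM on WD to 13.1, 5.56, 12.6, 5.70 and 10.5 CPM on CDA-HFD, and its receptor from 5.48, 7.04, 1.74, 3.86 and 4.81 CPM to 41.3, 23.2, 35.0, 21.7 and 32.3 CPM. For both genes every liver on CDA-HFD lay above every liver on WD. Groups lay apart in this way for 16 of 33 members tested and for 3224 of all 16726 genes. *Cxcr4* (2.55 ± 0.29), *Ccr1* (2.39 ± 0.32), *Ccr7* (2.39 ± 0.26), *Ccr2* (2.16 ± 0.27) and *Xcr1* (2.11 ± 0.32), the last a receptor of cross-presenting dendritic cells, rose by more than 2 on the log2 scale. *Cxcr3* (1.25), *Cxcr2* (0.99) and *Cxcr6* (0.48) rose by less, and *Cxcr2* lost its call in 6 of 10 fits with a liver left out.

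Of the other ligands, *Cxcl14* (2.02), *Ccl22* (1.97), *Ccl4* (1.64), *Cxcl16* (1.50), *Ccl6* (1.36), *Cxcl2* (1.34), *Cxcl10* (1.17), *Ccl21a* (1.07), *Ccl9* (1.06) and *Ccl2* (0.93) rose in WT livers, though *Ccl21a* lost its call in 5 of 10 fits with a liver left out and *Ccl2* in 1. *Ccl27a* fell (-1.12 ± 0.19, adjusted p = 0.000522), and so did *Ccl25* (-0.72 ± 0.18, adjusted p = 0.00601), a ligand of *Ccr9* known from gut and thymus, though for *Ccl25* library size scaling gave an adjusted p of 0.161. *Ccr9* did not pass (0.04 ± 0.19, adjusted p = 0.860). *Cxcl9* (-0.12 ± 0.29, adjusted p = 0.738), *Cxcl11* (-0.12 ± 0.34, adjusted p = 0.790) and *Cxcl1* (-0.05 ± 0.29, adjusted p = 0.893) did not pass, and library size scaling turned the sign of all 3 estimates. In the same comparison 11 of 12 macrophage and monocyte markers, 4 of 5 neutrophil markers and 8 of 9 T and NK cell markers tested rose, as did 6 of 6 cholangiocyte, 7 of 8 stellate cell and 3 of 5 dendritic cell markers. Of 6 hepatocyte, 6 endothelial and 6 Kupffer cell markers, 4, 4 and 3 fell. The part of these cell types in the changes of the chemokine genes was not tested.

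In KO livers, CDA-HFD against WD raised 4 of 18 ligands (*Ccl5*, *Ccl9*, *Cxcl16* and *Cxcl12*) and lowered 1 (*Ccl27a*), while 9.19% of all 16387 genes rose and 7.85% fell. Of 8 receptors tested, 5 rose (*Cx3cr1*, *Ccr2*, *Xcr1*, *Cxcr3* and *Ccr7*) and 0 fell. *Ccl5* (1.26 ± 0.29, adjusted p = 0.0165), *Ccl9* (1.06 ± 0.21, adjusted p = 0.00846) and *Ccl27a* (-0.93 ± 0.16, adjusted p = 0.00385) had groups that did not overlap. The same held for *Cxcl12*, *Cxcl16* and *Ccl25*, the last lower on CDA-HFD but not passing (adjusted p = 0.0719). Of 26 members tested, 2 lay apart lower and 8 higher, beside 1170 lower and 1325 higher of all 16387 genes. *Cxcl12* rose by 0.45 and *Cxcl16* by 0.88, calls lost with 7 and 6 of 10 livers left out singly. *Ccl2* had an estimate of 0.00 (adjusted p = 0.9997), with 2.76, 1.17, 1.02, 0.683 and 0.626 CPM on WD and 1.04, 1.20, 1.26, 1.03 and 1.62 CPM on CDA-HFD. Its SE is not given, because the way it was computed fails for an estimate this close to 0. Without KO liver 5 the estimate of *Ccl2* was -0.12 ± 0.40.

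Among the receptors in KO livers, *Cx3cr1* (2.32 ± 0.47), *Ccr2* (1.93 ± 0.43) and *Xcr1* (1.78 ± 0.30) had the largest rises, followed by *Cxcr3* (1.67, lost in 3 of 10 fits with a liver left out) and *Ccr7* (1.65, adjusted p = 0.0497, or 0.0506 with RLE size factors, lost in 8 of 10). The estimates without KO liver 5 were 1.70 for *Cx3cr1*, 1.51 for *Xcr1*, 1.32 for *Ccr2*, 1.19 for *Cxcr3* and 1.12 for *Ccr7*, the last with an adjusted p of 0.0790. *Ccr2* went from 7.26, 4.97, 4.56, 2.81 and 3.44 CPM on WD to 12.7, 11.5, 9.56, 12.2 and 41.1 CPM on CDA-HFD, and all livers on CDA-HFD lay above those on WD. Without KO liver 5, 6 of 19 ligands rose and 2 fell, and 4 of 8 receptors rose, while 9.03% of all genes rose and 8.37% fell. In the fit with all KO livers 8 of 12 macrophage and monocyte, 4 of 7 T and NK cell and 3 of 6 cholangiocyte markers rose, and their part was not tested. A smaller count of calls in KO than in WT livers does not show that the diet effect differed, and the members that passed the test of that difference are those given above.

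**Figure D5:**
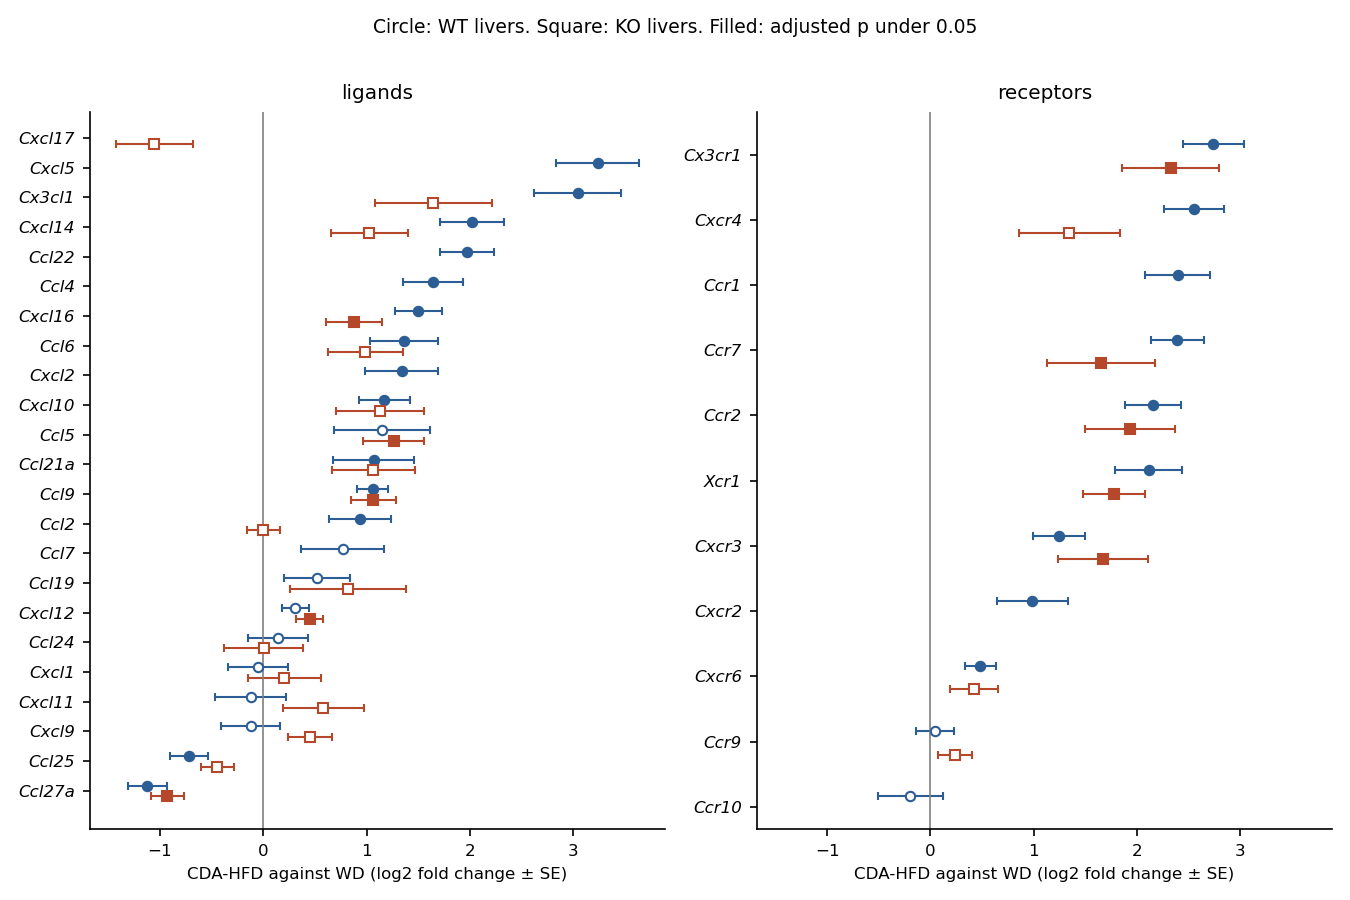
Log2 fold change of CDA-HFD against WD (x axis, ± SE) in WT livers (circles) and in KO livers (squares) for the ligands (left) and receptors (right) tested in at least 1 of the comparisons. Filled symbols passed at an adjusted p under 0.05, and a missing symbol means that the gene was not tested in that genotype. *Ccl2* lies at 0.93 in WT livers and 0.00 in KO livers, and its bar in KO livers is not a reliable SE.

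A few members varied by liver rather than by group. *Ccr3*, the eosinophil receptor, measured 0.235, 6.61, 0.302, 0.396 and 0.291 CPM in WT and 0, 0.233, 0, 0 and 0.313 CPM in KO livers on WD, and 12.0, 6.05, 0.551, 0.871 and 0.474 CPM in WT and 5.01, 0.190, 0.465, 0.587 and 0.120 CPM in KO livers on CDA-HFD. One or more livers of 3 groups stood far above the rest, and it did not pass where it was tested. Its ligand *Ccl24* did not pass in any comparison, and on CDA-HFD its estimate was -0.88 ± 0.33 (adjusted p = 0.0904). *Cxcl13*, which draws B cells through *Cxcr5*, measured 4.62, 0.258, 0.454, 0.297 and 6.05 CPM in WT livers on WD, where livers 1 and 5 stood apart, and did not pass on CDA-HFD (0.47 ± 0.62, adjusted p = 0.614). *Ccl19* and *Ccl21a*, the ligands of *Ccr7*, have near copies on chromosome 4 that may share their reads, and neither passed for KO against WT livers.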

How the data were processed

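RNA was sequenced from 20 mouse livers, 5 per group, and groups were taken from the labels. The deposited values are raw read counts per gene symbol, which the authors did not normalize. The build named with the data is mm10, and the aligner, counting program and annotation are not given in the sources used here. The methods describe a single-end library and the labels a directional kit, so strand use in the counting is unknown. Mapping was not repeated.

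Counts were fitted in R 4.3.3 with edgeR 4.0.16 (filterByExpr, TMM, quasi-likelihood F test, Benjamini-Hochberg adjustment over all genes tested), on the 10 livers compared or, for the difference between the diets, on all 20. A gene passed at an adjusted p under 0.05. SE was the size of the log2 fold change divided by the square root of the F statistic, which fails for estimates near 0. The 5 summary entries for unassigned reads (50.3% to 57.0% of reads per liver) were left out. Levels are CPM with TMM factors over 20 livers, and counting error limits those below about 1 CPM. Values per liver are listed in the order of the label numbers, 1 to 5. Permutation tests were exact and two-sided. The labels do not say that livers of a group came from separate cages or litters, so p-values measure the spread between these livers.

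One member of the naming rule is not reported here; it stayed in the fits and is in no count of members. Every other member past the threshold in some comparison is named. Values per liver are given for the 8 ligands and 6 receptors with the smallest adjusted p on CDA-HFD, or the highest level where fewer passed, and for their partners; *Ccr3*, *Cxcl13* and the interferon-induced ligands were added after their values were seen. The members and lists were chosen with earlier results of these data known. For any pair of libraries within a group, the squared difference per gene was on average at least 6.95 times the variance from sampling alone. Correlations between the deviations of same-numbered livers ran from -0.367 to 0.349. They were above 0 for number 4 (0.212 to 0.349) and below 0 for number 3 in every comparison. Such correlations cannot exclude pairing or a shared batch. No pairing is stated, so the main fits used none. The fits were tested on simulated counts. Alternatives were RLE factors, library size only, DESeq2 1.42.0, 2 filters, all 20 livers in one fit, a replicate block and each liver left out. Figures were drawn with Python 3.11.15 and matplotlib 3.10.9.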

Additional observations from a re-analysis of the deposited data

Results flagged for a closer look

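In groups of 5, a liver was listed where its gap to the nearest other liver exceeded 0.71 of the group's range (Dixon's test), which chance gives in about 5% of groups. Of 112 groups of values tested (26 named members and 2 sums, in 4 groups), 17 had such a liver, and 12 of the 17 were KO liver 5 on CDA-HFD. In that liver *Ccr2* was at 41.1 CPM (9.56 to 12.7 in the other 4), *Cx3cr1* at 41.1, *Cxcr4* at 18.9, *Ccr7* at 3.65 and *Ccr1* at 2.93 CPM. Of the ligands, *Cxcl16* was at 41.1, *Ccl6* at 40.0, *Cxcl14* at 10.9, *Cx3cl1* at 8.62 and *Ccl22* at 3.53 CPM. The receptors together were at 129.3 CPM, and the ligands without *Cxcl12* at 203.7 CPM (129.6 to 137.9 in the other 4). The remaining 5 were *Ccl2* at 2.76 CPM in KO liver 1 on WD, *Ccl22* at 1.09 CPM in WT liver 5 on WD and at 1.88 CPM (low) in WT liver 4 on CDA-HFD, *Cxcr3* at 0.304 CPM (low) in KO liver 4 on WD and *Xcr1* at 1.09 CPM in KO liver 2 on WD.

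The KO effect on *Cxcl5* differed between the diets by -4.01 on the log2 scale in the test of the interaction.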

How the results depend on the processing

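No named value changed sign across the alternatives where it had passed. On CDA-HFD, KO against WT, 9 ligands passed; 5 did with at least 10 counts in every library, and 3 to 16 with each liver left out in turn (3 without WT liver 5, 4 without WT liver 3, 5 without KO liver 1 or 3, 16 without KO liver 5). Of receptors 3 passed, the stricter filter gave 1, and leaving out single livers 1 to 6 (1 without WT liver 3 or KO liver 1, 2 or 3, 6 without KO liver 5). The replicate block gave 10 ligands and 4 receptors there, and no paired design is stated. Over all genes, 2664 passed in that comparison, 2604 with the stricter filter and 2459 with the replicate block. Without WT liver 3 or 5 it was 789 or 913. Without KO liver 1, 2, 3 or 5 it was 709, 986, 736 or 7201. On WD, DESeq2 gave 1 ligand in place of 0, beside 164 in place of 12 of all genes. For the diet in WT livers the stricter filter gave 9 in place of 14 ligands and 5 in place of 9 receptors, beside 7198 in place of 8542 of all genes. For the diet in KO livers, 5 ligands passed, against 11 by library size only, 9 by DESeq2, 10 with all 20 livers in one fit and 3 to 8 with single livers left out (3 without KO liver 1, 2, 4 or 5 on WD, 8 without KO liver 5 on CDA-HFD); of receptors 5 passed, against 2 by the stricter filter and 3 to 5 with single livers left out (3 without KO liver 2, 4 or 5 on WD). In the replicate block *Ccr7* (1.58) and *Cxcl16* (0.77) did not pass in that comparison. Of all genes, 2792 passed there, against 3924 by library size only, 3658 by DESeq2 and 4476 with all 20 livers. The stricter filter gave 2326, the replicate block 2044 and single livers left out 1568 to 2881. Scaling by library size alone moved the median log2 fold change over all genes from 0.003 to 0.25. For the diet in WT livers it moved this median from -0.003 to 0.42. For KO against WT livers on CDA-HFD it moved this median from 0.005 to -0.19. For the difference between the diets, 1 ligand passed, 0 by DESeq2 and by the stricter filter, which *Cxcl5* does not meet, and 0 to 4 with single livers left out (0 without KO liver 1 on WD, 4 without KO liver 5 on CDA-HFD); for receptors 0 to 1 (*Cxcr4* without KO liver 5). Of all genes, 99 passed for that difference, 434 by DESeq2 and 103 by the stricter filter. Without KO liver 1 on WD it was 54, and without KO liver 5 on CDA-HFD 2138. The stricter filter removes low genes such as *Cxcl5*, *Ccl3* and *Cxcl2* from the test, and the cause of the other changes was not tested.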
